A study of Mus musculus with 6 samples.

Results

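A set of 9 genes that mark the upper part of the mouse hair follicle, the isthmus and the infundibulum, were described: Lrig1, Plet1, Ly6a, Ly6d, Defb6, Klk10, Cst6, Sostdc1 and Krt79. They were chosen by name, and all 9 were found by Entrez number among the 36528 genes listed. All 9 passed the filter on low counts that left 15132 genes for testing. Polyadenylated RNA had been sequenced from skin cells sorted as CD49f-positive, CD34-positive and GFP-negative, which are stem cells of the hair follicle bulge outside the reporter-positive population. One group of 3 libraries came from Lgr5-DTReGFP mice given diphtheria toxin (DT) and the other group of 3 libraries from Lgr5-DTReGFP mice given saline (NaCl). Mice of both groups carry the toxin receptor and eGFP at Lgr5, so that DT kills cells that express Lgr5, and no group analysed here lacked the receptor and received DT. The labels do not give the dose of DT, the time to collection, the age of the mice or the stage of the hair cycle. Nor do they tie each library to an animal of its own, so the p-values cover the spread from library to library, which may be technical.

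The hair follicle opens at the infundibulum, the funnel that joins the epidermis, and below it lies the isthmus, where the sebaceous gland attaches. The bulge, which carries CD34, lies under the isthmus. Stem cells of the isthmus and junctional zone maintain the upper follicle and the sebaceous gland, and after wounding cells of the bulge and of the upper follicle can both move into the epidermis. The genes described here are known for high expression above the bulge, but several of them are not restricted to it.

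The sort could be checked against genes of the bulge. Cd34 averaged 842 ± 135 RPKM (read counts scaled by gene length and library size, as the authors deposited them) in DT libraries and 1005 ± 128 RPKM in saline libraries (SD, n = 3 each), and the bulge keratin Krt15 averaged 18197 ± 4835 RPKM in DT and 19019 ± 3576 RPKM in saline. Neither passed the test between the groups, but 5 of 9 bulge genes fell (against 11.9% of all genes tested) and the other 4 did not pass. Summed levels of the 9 bulge genes were 29669 to 50796 CPM (read counts scaled by TMM to a common library size) in DT and 37726 to 51247 CPM in saline. The 5 that fell were Lgr5 (log2 -1.76), the transcription factors Lhx2 (-1.09, adjusted p = 0.00696), Sox9 (-0.71, adjusted p = 0.0342) and Nfatc1 (-0.69, adjusted p = 0.0165), and the matrix protein gene Postn (-0.52, adjusted p = 0.0385). Without DT library 2 this count was 2, and it was 3 without DT library 3 or saline library 2. In RPKM the 9 upper follicle genes averaged 6.72 to 234 RPKM in DT libraries and 3.01 to 376 RPKM in saline libraries. In bulk RNA of sorted cells, fewer cells of a type and less RNA per cell cannot be told apart, so the reads of these genes cannot be assigned to bulge cells or to upper follicle cells inside the gate. Lgr5 was at 7.08, 6.98 and 7.27 CPM in DT libraries 1 to 3, against 17.3, 31.6 and 23.2 CPM in saline libraries 1 to 3. Libraries held 15300755 to 25558859 reads in genes. Saline library 1 stood apart from saline libraries 2 and 3 on the second axis of variation (35.1 against -14.4 and -23.9). The test between the groups was also fitted without each library. Overlap of the groups, the order of genes by RPKM and the closest profiles were computed over all libraries only.

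Of the upper follicle genes 5 fell in the DT libraries and 1 rose. The keratin Krt79 was 2.59-fold lower, the surface protein Ly6d 1.90-fold, the protease inhibitor Cst6 1.71-fold, the secreted BMP and Wnt regulator Sostdc1 1.61-fold and the receptor inhibitor Lrig1 1.54-fold. The serine protease Klk10 was 4.26-fold higher. Ly6a, Plet1 and Defb6 did not pass the test. The 6 genes that passed make up 66.7% of the 9, against 29.0% of all genes tested (edgeR quasi-likelihood test, Benjamini-Hochberg adjusted p under 0.05 over all 15132 genes). By direction, 5 of 9 were lower, against 11.9% of all genes, and 1 of 9 was higher, against 17.2%. Of all genes called 59.2% were higher in DT, or 47.5% when scaled by library size only. The DT and saline libraries did not overlap for the same 6 genes, against 45.9% of all genes tested. Non-overlapping and lower in DT were 5 of the 9 and 20.5% of all genes, and non-overlapping and higher in DT 1 of the 9 and 25.4% of all genes. The median log2 fold change of the 9 was -0.62 and that of all genes tested was -0.01. These genes were selected with earlier results of the same data known, so the shares describe them and are no test of the group.

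**Figure D1:**
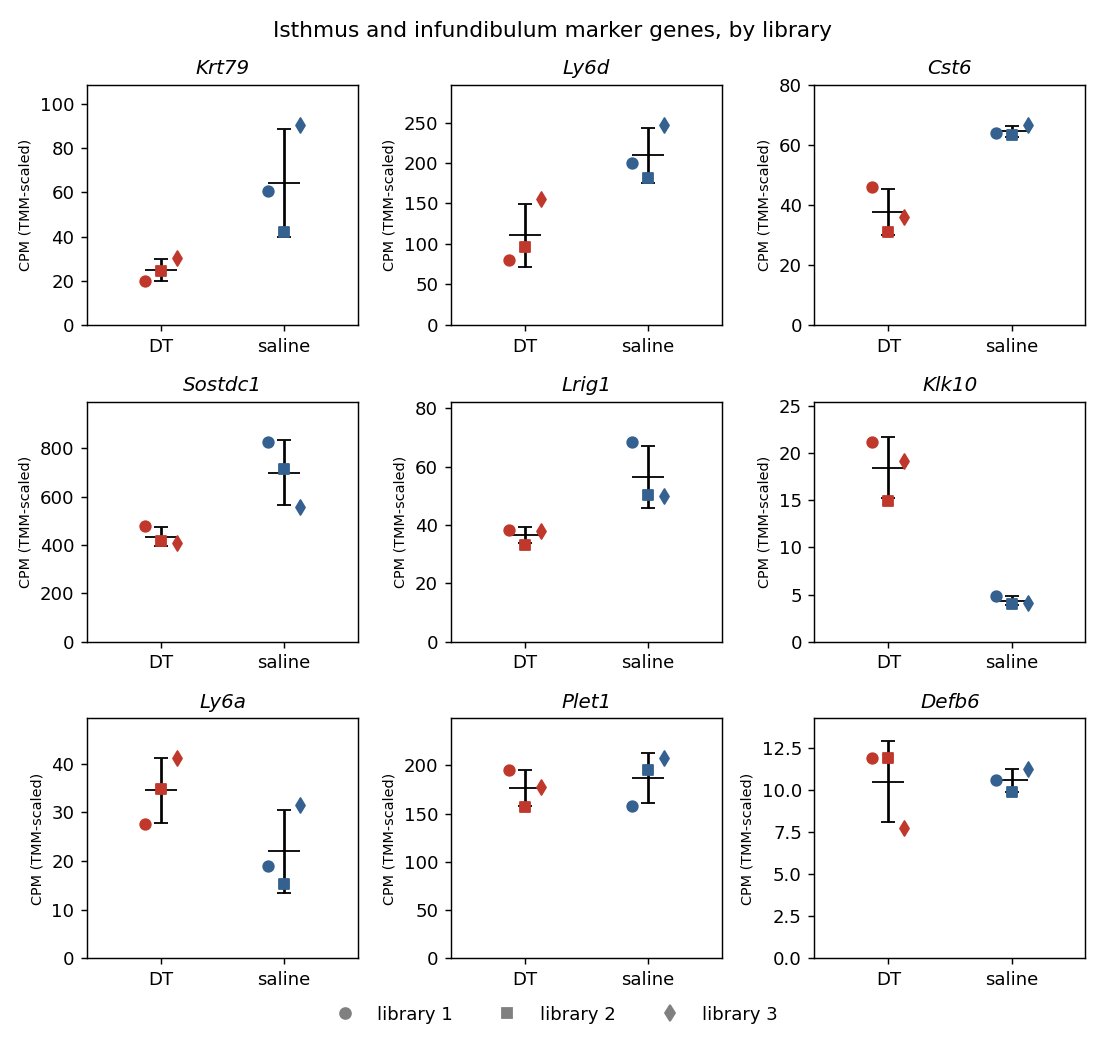
CPM (TMM-scaled, each axis from 0) of the 9 upper follicle genes in DT libraries (left, red) and saline libraries (right, blue). Symbols are single libraries, and bars are the mean and SD of 3. The groups do not overlap for Krt79, Ly6d, Cst6, Sostdc1, Lrig1 and Klk10, and overlap for Ly6a, Plet1 and Defb6.

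Krt79 is a type II keratin of keratinocytes that line the infundibulum and the follicle canal (Entrez 223917, GRCm38 chromosome 15 from 101929332 to 101940324, minus strand). It was at 20.1, 24.5 and 30.1 CPM in DT libraries 1 to 3, against 60.6, 42.1 and 90.5 CPM in saline libraries 1 to 3. Every DT library lay below every saline library, although the saline libraries differed among themselves by over 2-fold. Its log2 fold change was -1.37 (SE 0.27, 95% interval -1.97 to -0.78, adjusted p = 0.00483), the largest fall of the 9, and it ranged from -1.60 without saline library 2 to -1.05 without saline library 3. Lower levels of suprabasal keratinocyte genes came with it. Of 12 such genes 6 fell (against 11.9% of all genes) and the other 6 did not pass. The number that fell was 4 without DT library 2 and 5 without saline library 2. It was 7 without DT library 1 and 8 without saline library 1. The summed level of the 12 was 1196 to 1357 CPM in DT libraries and 1468 to 1903 CPM in saline libraries. Krt10, a keratin of the suprabasal epidermis, was at 24.2 ± 2.63 CPM in DT and 59.5 ± 14.6 CPM in saline (log2 -1.30, adjusted p = 0.00139). Involucrin (Ivl) and loricrin (Lor), markers of late differentiation, did not pass and had adjusted p = 0.0772 and 0.624, although Ivl passed without DT library 3 (adjusted p = 0.0300) or saline library 1 (0.0353). Of 10 sebaceous genes tested 1 rose and 2 fell (against 17.2% and 11.9% of all genes), with sums of 291 to 334 CPM in DT and 336 to 363 CPM in saline. Mc5r, which fell, had 5, 2 and 6 reads in DT libraries 1 to 3 and would not have passed the filter on low counts through them alone. Without DT library 2 or 3 or saline library 2, 0 of the 10 passed upward and 1 downward, and 1 fell without DT library 1 or saline library 3, while 2 rose without DT library 1. The part of suprabasal or sebaceous cells in the fall of Krt79 was not tested.

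Krt79 lies in the type II keratin cluster, and its relatives there did not move as one. Of 17 other type II keratins 13 were tested, of which 5 fell and 4 rose (against 11.9% and 17.2% of all genes), with a median log2 fold change of 0.25. Krt73, 1 of the 4 that rose, had 0, 6 and 14 reads in saline libraries 1 to 3, against 33, 63 and 58 in DT libraries 1 to 3. It would not have passed the filter on low counts through the saline libraries alone. Without DT library 2 the number that fell was 2, and without DT library 3 it was 3. Krt77 (log2 -1.41, adjusted p = 0.00128) and Krt78 (-1.35, adjusted p = 0.00986) fell by about as much as Krt79. Krt6a, a keratin of the companion layer that is induced by wounding, was at 2158 ± 171 CPM in DT and 453 ± 161 CPM in saline (log2 2.25, adjusted p = 2.54e-04), and Krt6b rose with it (2.22). Krt8, a keratin of simple epithelia, rose and was low in both groups (1.98, 3.81 ± 1.13 CPM in DT and 0.956 ± 0.171 CPM in saline). Krt5, the main type II keratin of basal cells, was at 10628 ± 1065 CPM in DT and 8965 ± 508 CPM in saline and did not pass (0.25, adjusted p = 0.195). Krt17, a type I keratin of the follicle epithelium, was at 24989 ± 4440 CPM in DT and 23384 ± 1620 CPM in saline (0.10, adjusted p = 0.682).

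Lrig1, a transmembrane protein that restrains signalling by the EGF receptor family and marks stem cells of the junctional zone, lies on chromosome 6 from 94604529 to 94700298 on the minus strand (Entrez 16206). It was at 38.4, 33.3 and 38.1 CPM in DT libraries 1 to 3, against 68.6, 50.3 and 50.1 CPM in saline libraries 1 to 3. The DT libraries lay close together and below all saline libraries, of which library 1 was the highest. The log2 fold change of -0.62 (SE 0.17, 95% interval -0.99 to -0.25, adjusted p = 0.0201) lost its call when DT library 2 (-0.59, adjusted p = 0.0654) or DT library 3 (-0.68, adjusted p = 0.0530) was left out. The other members of the LRIG family fell as well. Lrig2 was at 25.0 ± 1.74 CPM in DT and 44.6 ± 4.62 CPM in saline (log2 -0.84, adjusted p = 0.00391), and Lrig3 at 30.9 ± 9.55 CPM in DT and 65.8 ± 7.68 CPM in saline (log2 -1.09, adjusted p = 0.00541). The receptors on which LRIG proteins are known to act did not pass: Egfr had a log2 fold change of -0.31 (adjusted p = 0.162), Erbb2 of -0.47 (0.140) and Erbb3 of -0.57 (0.108). Erbb2 passed without DT library 1 (-0.70, adjusted p = 0.0358), as did Erbb3 (-0.86, adjusted p = 0.0185), which also passed without saline library 1 (-0.75, adjusted p = 0.0446). Erbb4 had 0 reads in every library.

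Plet1, a glycoprotein anchored in the outer membrane and the antigen of the MTS24 antibody that marks isthmus keratinocytes, lies on chromosome 9 from 50494525 to 50505639 on the plus strand (Entrez 76509). It was at 195, 157 and 177 CPM in DT libraries 1 to 3, against 158, 195 and 207 CPM in saline libraries 1 to 3. The groups overlapped over nearly their whole range. Its log2 fold change was -0.08 (SE 0.15, adjusted p = 0.712), with a 95% interval of 0.757-fold to 1.18-fold. An antisense gene, Plet1os, spans all of Plet1 and was at 44.4 to 59.3 CPM in DT libraries and 43.3 to 59.0 CPM in saline libraries. Whether counting used strand is not given in the sources used here, so reads of the 2 genes may have been mixed.

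Ly6a encodes Sca-1, a small membrane-anchored protein of the infundibulum and epidermis that is also found on endothelial cells and on cells of the blood (Entrez 110454, chromosome 15 from 74994877 to 74998031, minus strand). It was at 27.7, 34.9 and 41.1 CPM in DT libraries 1 to 3, against 19.1, 15.3 and 31.6 CPM in saline libraries 1 to 3. DT libraries 2 and 3 lay above all saline libraries, and saline library 3 lay above DT library 1. The log2 fold change of 0.65 (SE 0.27, adjusted p = 0.0936) did not pass, and without saline library 3 it was 1.01 (adjusted p = 0.0167). The summed level of 7 endothelial markers was 8.02, 11.9 and 12.5 CPM in DT libraries 1 to 3 and 12.1, 3.61 and 24.4 CPM in saline libraries 1 to 3. Among saline libraries the sum was highest in the one with the most Ly6a and lowest in the one with the least. The keratinocyte genes Krt79 and Ly6d had their saline libraries in the same order. Of the 5 endothelial markers tested 0 passed in edgeR (0 at an unadjusted p under 0.05, and 0 in DESeq2 or limma), with adjusted p from 0.386 to 0.986. Cd3g, a subunit of the T cell receptor complex, fell to 5.16 ± 1.56 CPM in DT, against 17.3 ± 7.86 CPM in saline (log2 -1.75, adjusted p = 0.00806). The part of endothelial or T cells in the level of Ly6a was not tested.

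Ly6d, a membrane-anchored protein of the same family that is abundant in stratified epithelia, lies in the same cluster on chromosome 15, from 74762056 to 74763567 on the minus strand (Entrez 17068). It was at 80.0, 96.6 and 155 CPM in DT libraries 1 to 3, against 200.2, 181 and 247 CPM in saline libraries 1 to 3. DT library 3 lay nearest to the saline libraries without reaching them. The fitted change was -0.92 on the log2 scale (SE 0.23, 95% interval -1.44 to -0.41, adjusted p = 0.0146), and it lost its call when DT library 2 (-0.86, adjusted p = 0.0647) or saline library 3 (-0.79, adjusted p = 0.0509) was left out. Of 15 further LY6 genes 5 were tested, of which 2 rose and 1 fell (against 17.2% and 11.9% of all genes) and 2 did not pass. Ly6e, a neighbour in the cluster that responds to interferon, was at 429 ± 26.0 CPM in DT and 131 ± 18.3 CPM in saline (log2 1.71, adjusted p = 5.75e-05). Lypd3, a surface protein of keratinocytes, rose by 0.75 (adjusted p = 0.00913), and Ly6g6c fell (-0.76, adjusted p = 0.0137, and 0.0616 without saline library 2 or 0.0540 without DT library 2). Among 13 interferon-stimulated genes tested, 6 rose and 2 fell, against 17.2% and 11.9% of all genes. The counts were 4 and 1 without DT library 2 or 3 or saline library 2, and 5 and 1 without saline library 3. The summed level of the list was 306 to 449.7 CPM in DT and 272 to 306 CPM in saline. LY6 genes are similar in sequence and the counts hold only reads that aligned uniquely, so their levels may be under-counted.

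The 3 of the 9 genes on chromosome 15 had their libraries in the same order within each group: Krt79, Ly6a and Ly6d were highest in DT library 3 and lowest in DT library 1, and highest in saline library 3 and lowest in saline library 2. The order was neither shared by every gene of the chromosome nor limited to it. Krt80, also on chromosome 15, was highest in DT library 1 and in saline library 2, and Emcn on chromosome 3 had the order. The share of all genes with it was not computed, and a tie to the chromosome was not tested. DT library 3 and saline library 3 are the libraries whose submitters' identifiers belong to the smaller of 2 number series. Within the larger series, with 2 libraries per group, the log2 fold changes were -1.21 for Krt79 (adjusted p = 0.0265), -1.11 for Ly6d (0.0138), 2.03 for Klk10 (0.00996), -0.79 for Sostdc1 (0.0432), -0.73 for Lrig1 (0.0903) and -0.72 for Cst6 (0.100). In the smaller series, with 1 library per group and no test, the log2 ratios of DT to saline were -1.59 for Krt79, -0.68 for Ly6d, 2.22 for Klk10, -0.44 for Sostdc1, -0.40 for Lrig1 and -0.89 for Cst6. The DT and saline libraries of these 6 genes do not overlap, so the sign had to be the same in both series. Ly6a had values of 0.86 in the larger series (adjusted p = 0.0741) and 0.38 in the smaller, and it passed in a fit over all 6 libraries with the number series as a block (0.70, adjusted p = 0.0272). Defb6 had 0.21 in the larger (adjusted p = 0.692) and -0.54 in the smaller.

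Sostdc1, also called ectodin or Wise, is a secreted protein that binds BMP ligands and the Wnt co-receptors of the LRP family (Entrez 66042, chromosome 12 from 36314169 to 36318452, plus strand). It was at 479, 415 and 410.0 CPM in DT libraries 1 to 3, against 828, 716 and 557 CPM in saline libraries 1 to 3. All DT libraries lay below all saline libraries, and saline library 3 was the closest to them. It fell with a log2 fold change of -0.69 (SE 0.16, 95% interval -1.04 to -0.33, adjusted p = 0.0107) and passed without each library in turn (adjusted p up to 0.0452). Among its binding partners, the receptors Lrp4 (log2 -0.89, adjusted p = 0.00210) and Lrp6 (-0.64, adjusted p = 0.0115, or 0.0539 without saline library 2) fell, and Lrp5 did not pass (-0.71, adjusted p = 0.216). Lrp4 was at 70.4 ± 6.02 CPM in DT and 130.5 ± 19.0 CPM in saline. Of the 8 partners tested 5 fell and 1 rose (against 11.9% and 17.2% of all genes), and without DT library 2 or saline library 2 or 3 the number that fell was 3. The BMP ligands moved apart. Bmp2 was at 7.73 ± 3.07 CPM in DT and 2.21 ± 0.533 CPM in saline (log2 1.80, adjusted p = 0.00514), whereas Bmp6 was at 1.94 ± 1.15 CPM in DT and 9.46 ± 5.09 CPM in saline (log2 -2.30, adjusted p = 0.0106). Bmp4 fell by 1.28 on the log2 scale (adjusted p = 0.0199, or 0.0700 without DT library 2 and 0.0598 without saline library 3) and Bmp7 had a log2 fold change of -0.45 that did not pass once any 1 of the 6 libraries was left out (adjusted p = 0.0479, or up to 0.163). Sost, the closest relative of Sostdc1, had 0 reads in every library.

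Klk10 encodes a secreted protein of the kallikrein family of serine proteases and was the only one of the 9 genes that rose (Entrez 69540, chromosome 7 from 43781054 to 43785410, plus strand). It was at 21.2, 14.9 and 19.2 CPM in DT libraries 1 to 3, against 4.89, 3.98 and 4.12 CPM in saline libraries 1 to 3. The lowest DT library was above the highest saline library by more than the spread within either group. Klk10 had a log2 fold change of 2.09 (SE 0.23, 95% interval 1.58 to 2.60, adjusted p = 2.54e-04) and stayed between 1.97 and 2.19 without each library in turn. Per length Klk10 was the lowest of the 9 genes in saline, at 3.01 ± 0.340 RPKM, and the sixth in DT, at 12.8 ± 2.03 RPKM. A gene on the opposite strand, 2310002F09Rik, overlaps all of Klk10 and had at most 0.434 CPM in any library.

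The 250 bases before the annotated start of 3 genes are shown here because they represent the gene that rose, the gene with the greatest fall and a gene whose groups overlapped. They are RefSeq sequences of GRCm38.p6 in the direction of transcription, and 5 of the 9 genes had an entry. Capitals mark matches on either strand to a TATA box, searched as the letters TATAAA. They also mark matches to a loose form of the motif bound by AP-1 factors, searched as TGANTCA with any base at N. For the factors of the GATA family the letters searched were AGATAA, and no matches of these motifs overlapped each other.
Klk10: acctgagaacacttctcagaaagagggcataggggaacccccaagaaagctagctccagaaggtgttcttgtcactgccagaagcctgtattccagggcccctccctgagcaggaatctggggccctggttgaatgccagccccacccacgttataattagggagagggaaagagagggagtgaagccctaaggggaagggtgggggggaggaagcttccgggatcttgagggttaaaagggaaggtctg
Krt79: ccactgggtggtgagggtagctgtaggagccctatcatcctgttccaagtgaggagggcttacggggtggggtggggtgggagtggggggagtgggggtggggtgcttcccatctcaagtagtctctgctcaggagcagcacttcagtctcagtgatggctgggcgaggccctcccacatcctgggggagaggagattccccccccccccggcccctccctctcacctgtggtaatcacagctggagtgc
Plet1: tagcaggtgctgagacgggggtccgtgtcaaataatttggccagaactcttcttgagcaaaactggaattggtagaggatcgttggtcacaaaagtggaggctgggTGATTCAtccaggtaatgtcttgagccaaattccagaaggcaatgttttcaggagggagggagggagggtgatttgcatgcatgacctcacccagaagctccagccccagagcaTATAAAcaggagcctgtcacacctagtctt
The first sequence is chr7:43780804-43781053 on the plus strand, the second chr15:101940325-101940574 on the minus strand and the third chr9:50494275-50494524 on the plus strand. In Plet1 a TATA box began at -30 from the start. A match to the loose AP-1 letters, spelled TGATTCA, began at -144, and whether AP-1 factors bind it was not tested. The windows of Klk10, Krt79 and Lrig1 held none of the 3 motifs in these spellings. The Lrig1 window, from 94700146 to 94700395, lies partly inside the extent of the gene given above. The window of Defb6 held a GATA motif at -115. Among 32851 mouse promoters of the same length, the TATA box was found in 12.4%, the loose AP-1 letters in 6.75% and the GATA motif in 9.99%. The base composition of the 5 windows ranged from 46.8% G and C in Defb6 to 71.6% in Lrig1.

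Klk10 stands among its relatives on chromosome 7, between Klk11 and Klk9, and the tested genes next to it on either side did not rise. Klk11, whose start lies at -6.44 kb from that of Klk10, was at 4.52 ± 2.12 CPM in DT and 12.2 ± 2.24 CPM in saline (log2 -1.42, adjusted p = 0.0112, or 0.0528 without DT library 2). Klk8 was at 3.95 ± 0.863 CPM in DT and 9.12 ± 1.08 CPM in saline (log2 -1.21, adjusted p = 0.00809). Klk5 and Klk7, proteases that shed cells from the cornified layer, fell as well. Klk5 was at 4.27 ± 0.870 CPM in DT and 9.10 ± 2.28 CPM in saline (log2 -1.08, adjusted p = 0.0177), and Klk7 at 14.9 ± 5.83 CPM in DT and 29.9 ± 10.9 CPM in saline (adjusted p = 0.0477), with overlapping groups. Klk5 lost its call with DT library 2 (adjusted p = 0.0649) or saline library 2 (0.0840) left out, and Klk7 with DT library 1 or 2 or saline library 2 or 3 left out (adjusted p = 0.105, 0.126, 0.169 and 0.107). Klk6 had 109 reads over the 3 DT libraries and 0 over the 3 saline libraries, at least 40.8-fold higher in DT against a floor of 3 counts over the saline group (counting error only), and it passed the filter on low counts through the DT libraries alone. Klk9 did not pass (0.39, adjusted p = 0.741), and Klk1, Klk4 and Klk15 had 0 reads. Spink5, which encodes an inhibitor of the kallikreins of the epidermis, was at 297 ± 75.7 CPM in DT and 122 ± 30.6 CPM in saline (log2 1.28, adjusted p = 0.00264). Of the 6 other genes tested in this list 4 fell and 1 rose (against 11.9% and 17.2% of all genes), with a median log2 fold change of -1.04. Without DT library 2 the number that fell was 1, and without saline library 2 it was 2.

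**Figure D2:**
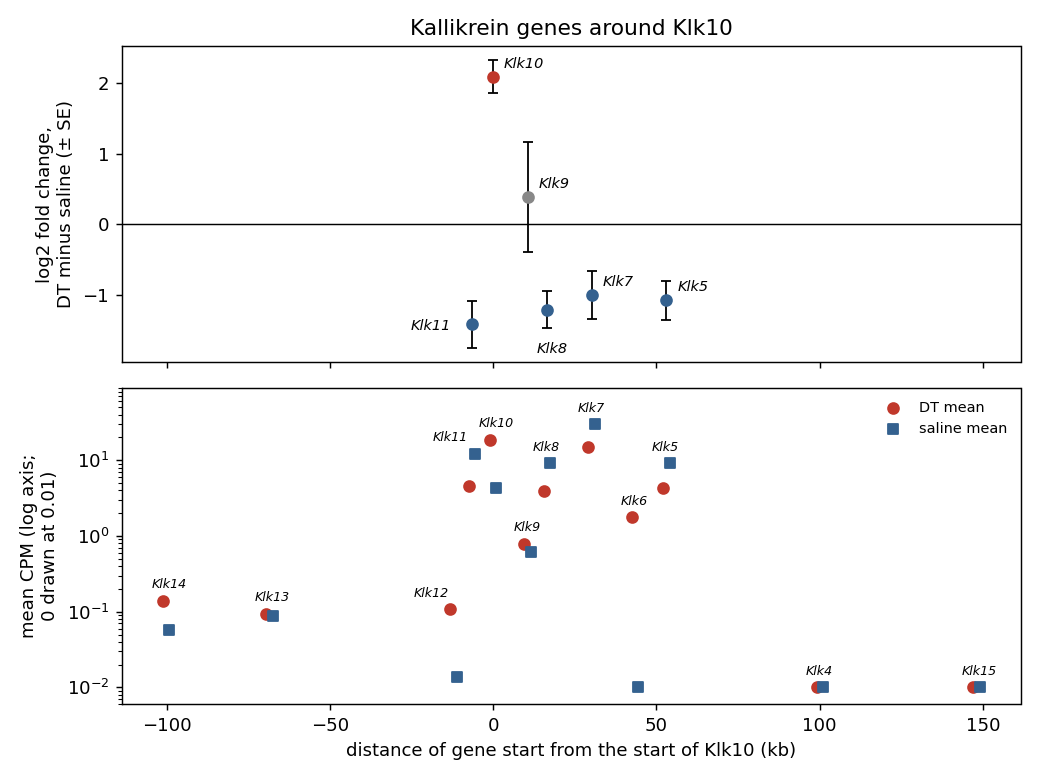
Kallikrein genes of chromosome 7 by the distance of their start from that of Klk10. Top, log2 fold change (DT minus saline, bars are SE, red and blue past the test, grey not) for tested genes with reads in saline. Bottom, mean CPM in DT (circles) and saline (squares) on a log axis with 0 drawn at 0.01, to be compared within a gene. Klk10 rose by 2.09, while Klk11, Klk8 and Klk5 fell by 1.08 to 1.42, and Klk7 fell too.

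Cst6 encodes cystatin M/E, a secreted inhibitor of legumain and of cathepsin L that is needed for normal cornification in mice (Entrez 73720, chromosome 19 from 5344705 to 5349574, minus strand). It was at 46.1, 31.0 and 35.9 CPM in DT libraries 1 to 3, against 64.0, 63.2 and 66.7 CPM in saline libraries 1 to 3. The saline libraries varied by 2.83% (coefficient of variation), and the DT libraries by 20.6%, with the highest DT library still below them. The log2 fold change was -0.78 (SE 0.17, 95% interval -1.15 to -0.41, adjusted p = 0.00730) and passed without each library in turn (adjusted p up to 0.0297). Its target Lgmn, which encodes legumain, rose to 103 ± 14.2 CPM in DT, against 71.1 ± 4.66 CPM in saline (log2 0.54, adjusted p = 0.0184, or 0.0828 without saline library 2 and 0.0514 without DT library 3). Ctsl, the gene of cathepsin L, was at 316 ± 70.7 CPM in DT and 341 ± 44.2 CPM in saline and did not pass (-0.11, adjusted p = 0.674). Of 11 genes of cystatins, legumain, cathepsins and transglutaminases tested 3 rose and 1 fell (against 17.2% and 11.9% of all genes). Ctsh (0.98, adjusted p = 0.00187), the intracellular inhibitor Cstb (0.58, adjusted p = 0.0149) and Lgmn rose. The transglutaminase Tgm5 fell (-0.56, adjusted p = 0.0122). The number that rose was 1 without DT library 3 or saline library 2, and 2 without DT library 2 or saline library 3. Cstb lost its call with DT library 2 or 3 or saline library 2 or 3 left out (adjusted p = 0.0712, 0.0517, 0.0654 and 0.0561).

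Defb6 encodes a beta-defensin, a short secreted antimicrobial peptide (Entrez 116746, chromosome 8 from 19225478 to 19228209, plus strand). It was at 11.9, 11.9 and 7.74 CPM in DT libraries 1 to 3, against 10.6, 9.90 and 11.3 CPM in saline libraries 1 to 3. DT libraries 1 and 2 were above every saline library and DT library 3 was below them all. The log2 fold change was -0.02 (SE 0.23, 95% interval -0.54 to 0.51, adjusted p = 0.968), and its sign changed without DT library 3 (0.14) or saline library 3 (0.03). Few other antimicrobial genes were expressed. Of 10 examined, 3 were tested and 0 passed in edgeR (0 at an unadjusted p under 0.05, and 0 in DESeq2 or limma), namely Defb1 (-0.58, adjusted p = 0.255), Defb14 (-0.27, adjusted p = 0.716) and Pglyrp1 (-0.46, adjusted p = 0.505). The summed level of the 10 was 4.83 to 6.91 CPM in DT libraries and 6.05 to 9.38 CPM in saline libraries.

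**Figure D3:**
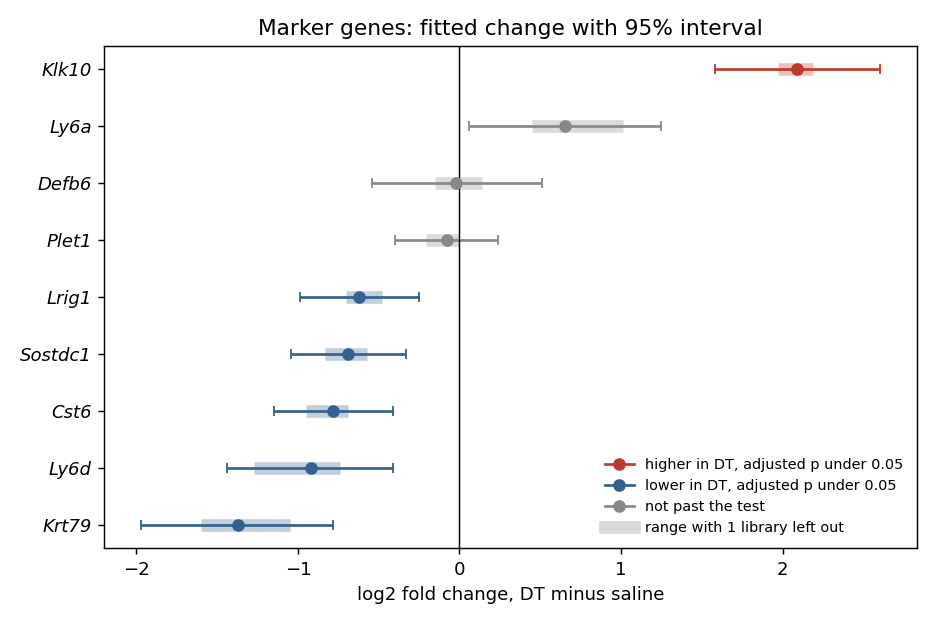
Fitted log2 fold change (DT minus saline) of the 9 upper follicle genes, with 95% intervals, sorted by size. Pale bars give the range of the estimate with 1 library left out. Klk10 lies at 2.09, Krt79 at -1.37, and the intervals of Plet1 and Defb6 include 0. The interval of Ly6a, which did not pass the test, runs from 0.06 to 1.25.

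Per length, Sostdc1, Ly6d and Plet1 led the 9 genes in both groups, and the order of the other 6 differed. In DT libraries it was Sostdc1 (234 ± 16.3 RPKM), Ly6d (151 ± 54.4), Plet1 (89.9, range 81.5 to 97.2), Ly6a (32.5 ± 6.72), Defb6 (30.6 ± 6.91), Klk10 (12.8 ± 2.03), Krt79 (11.1 ± 2.36), Cst6 (8.95 ± 1.66) and Lrig1 (6.72 ± 0.435). In saline libraries it was Sostdc1 (376 ± 72.5 RPKM), Ly6d (285 ± 47.0), Plet1 (94.9, range 80.3 to 105), Defb6 (30.8 ± 2.10), Krt79 (28.6 ± 10.9), Ly6a (20.6 ± 8.06), Cst6 (15.4 ± 0.475), Lrig1 (10.3 ± 1.94) and Klk10 (3.01 ± 0.340). In DT, neighbours whose libraries overlapped were Ly6a with Defb6, Klk10 with Krt79, and Krt79 with Cst6. In saline they were Sostdc1 with Ly6d, Defb6 with Krt79, Krt79 with Ly6a, and Ly6a with Cst6. Among all genes tested, ranked by mean RPKM, Sostdc1 was at percentile 98.4 in DT and 99.3 in saline, and Klk10 at percentile 69.1 in DT and 40.8 in saline.

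Other genes of the upper follicle were read from a separate list of 12, of which 5 fell and 1 rose, with a median log2 fold change of -0.36. Of this list Lgr6, Gata6, Prdm1, Nebl, Atp6v1c2 and Psapl1 were named as upper follicle markers in the analysis plan. Cd44, Fst, Aqp3, Krt17, Calml3 and Ptgs1 were not named there as such markers. The number of the 12 that fell was 2 without DT library 2 or 3 or saline library 2. Lgr6, a receptor that marks stem cells of the isthmus, was at 198, 190.5 and 199 CPM in DT libraries 1 to 3, against 568, 392 and 348 CPM in saline libraries 1 to 3 (log2 -1.16, adjusted p = 0.00151). Prdm1, which encodes the transcription factor Blimp1, was at 13.3 ± 2.29 CPM in DT and 37.2 ± 4.92 CPM in saline (log2 -1.48, adjusted p = 5.81e-04). Calml3 (-0.56, adjusted p = 0.0180), Fst (-0.42, adjusted p = 0.0327) and Psapl1 (-0.71, adjusted p = 0.0363) also fell, and the hyaluronan receptor Cd44 rose (0.40, adjusted p = 0.0458). The last 4 lost the call without at least 3 of the 6 libraries taken singly (adjusted p up to 0.0676 for Calml3, 0.0970 for Fst, 0.148 for Psapl1 and 0.216 for Cd44), and Cd44 also when scaled by library size only. Gata6, a transcription factor of the upper follicle and sebaceous duct, did not pass (-0.29, adjusted p = 0.377). Over all 8 lists of relatives, partners and further upper follicle genes, 23 of 64 genes tested fell (35.9%) and 13 rose (20.3%), against 11.9% and 17.2% of all genes. Among those that rose, Klk6 and Krt73 would not have passed the filter on low counts without the DT libraries. Of these 36 calls 0 changed sign under the other 2 scalings, which says little, since such a change was hardly possible. The smallest of the 36 changes was that of Cd44, at 0.40 on the log2 scale. The scalings differed by less, with medians over the tested genes of -0.011 (TMM), -0.109 (library size only) and -0.012 (DESeq2 size factors). With each library left out in turn 19 of the 36 calls held. Without DT library 2 the number that fell was 11, and without saline library 2 it was 14.

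**Figure D4:**
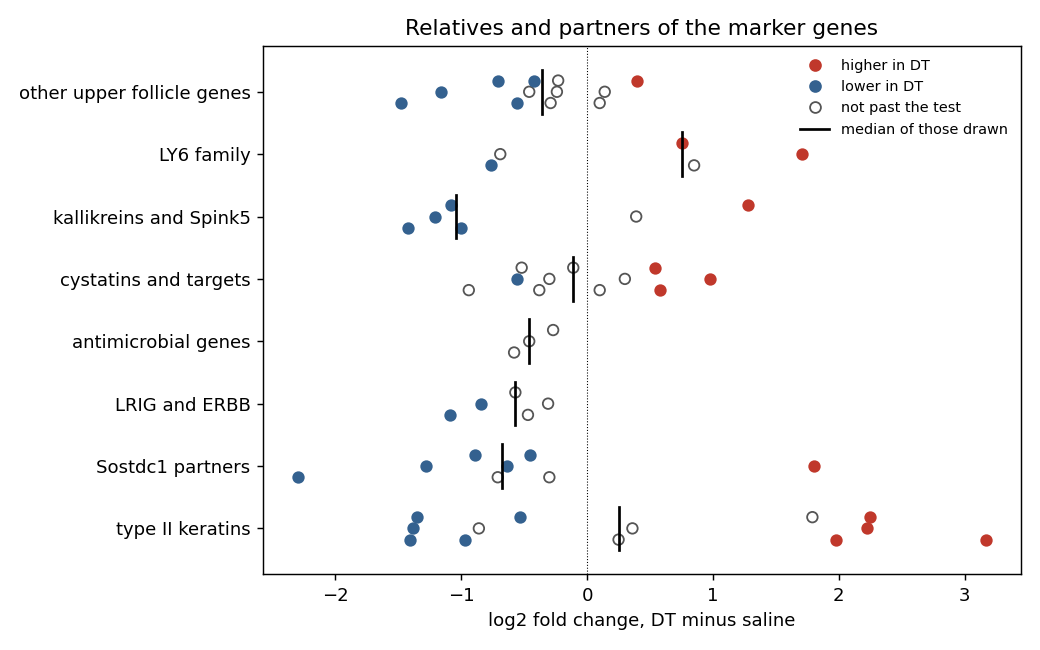
Log2 fold change (DT minus saline) of each tested gene in 8 lists of relatives and partners of the upper follicle genes. Filled points passed the test, open points did not, and black lines are medians of the points drawn. Klk6, with 0 reads in saline, is not drawn. Lrig2 and Lrig3 are both lower in DT, and the keratins and LY6 genes lie on both sides of 0.

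The genes whose profiles over the 6 libraries came closest to each changed gene were found by the root mean square difference of log2 CPM, centred on the saline mean. For Klk10 these were Psrc1, Vsir and Csf1 (0.10, 0.11 and 0.15). For Krt79 they were Gm30298, Calr3 and Zfp287 (0.16, 0.20 and 0.20), and for Ly6d they were Maob, ND2 and Arhgap25 (0.13, 0.16 and 0.16). Sostdc1 was followed most closely by Pdgfa, Tchp and Nfatc1 (0.02, 0.05 and 0.06), Cst6 by Ccnj, Cplane2 and Capns2 (0.03, 0.05 and 0.06), and Lrig1 by Srrm2, Zfp36l2 and Esyt3 (0.05, 0.06 and 0.06). Maob, Arhgap25 and Tchp did not pass the edgeR test themselves (adjusted p = 0.0718, 0.0624 and 0.0631). Candidates were 14371 tested genes with a symbol over only 6 libraries, and no background distance was computed. Shared regulation was not tested.

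Markers of other cells moved between the groups as well. Of 7 immune cell genes tested 3 fell and 1, Itgam, rose (against 11.9% and 17.2% of all genes). The number that fell was 2 without DT library 3 or saline library 1 or 3, and 4 without saline library 2. The rise of Itgam had adjusted p = 0.0109, or 0.0638 without DT library 2. The summed level of the list was 102 to 128 CPM in DT and 154 to 225 CPM in saline. Itgam had 0, 12 and 11 reads in saline libraries 1 to 3, against 84, 93 and 48 in DT libraries 1 to 3. It would not have passed the filter on low counts through the saline libraries alone. Of 4 melanocyte genes tested 2 fell (sum 8.73 to 10.6 CPM in DT, 13.5 to 29.8 CPM in saline), or 1 without DT library 2 or 3 or saline library 2 or 3, against 11.9% of all genes. Tyrp1, 1 of the 2, had 0, 11 and 16 reads in DT libraries 1 to 3 and would not have passed the filter through them alone. Of 2 fibroblast genes tested Col1a2 fell (sum 9.47 to 16.9 CPM in DT, 23.5 to 41.3 CPM in saline), with Lum at 0 reads in every library. The part of these cells in the changes of the upper follicle genes was not tested.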

How the data were processed

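The files hold, for each of 6 libraries, a count and an RPKM value per gene. Per the file headers, the deposited count is the number of reads that aligned uniquely to the gene model, and the authors scaled the deposited RPKM with a size factor for each library. Reads were aligned with GSNAP to GRCm38, per the submitters' processing notes, and for the annotation, the version and the use of strand these sources hold nothing (not given in the sources used here). RNA was extracted with a column kit including DNase digestion, per the labels' protocols. Symbols came from RefSeq for GRCm38, which named 31049 of 36528 identifiers.

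Counts were tested in R 4.3.3 with edgeR 4.0.16 (filterByExpr at its minimum count 10 and total 15, TMM scaling, robust quasi-likelihood test of DT against saline over 3 and 3 libraries, Benjamini-Hochberg adjustment over 15132 genes, threshold 0.05). Log2 fold changes are DT minus saline, and levels are CPM as mean ± SD. Library numbers follow accession order inside each group and pair nothing. Between libraries of the same group, chi-square divided by its degrees of freedom was 21.5 to 65.6, so none was a duplicate. Alternatives were DESeq2 1.42.0 as a tool and for size factors, scaling by library size, no filter, limma 3.58.1 (voom, and log2(RPKM + 1)), 2 block terms from the submitters' identifiers and each library left out. The fit within the larger identifier series was added after the data were seen. The 9 genes and the lists were chosen with earlier results of these data known. Named genes were the 9, Cd34, Itga6 and Lgr5, up to 4 genes of each list by smallest p and the 3 closest profiles of each changed gene, and other genes named were chosen after their values were seen. Itga6, which encodes CD49f, was at 98.8 ± 10.5 CPM in DT and 122 ± 20.5 CPM in saline (adjusted p = 0.160). Closest profiles used log2 CPM with a prior count of 2.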

Additional observations from a re-analysis of the deposited data

How the results depend on the processing

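Klk10, Krt79 and Sostdc1 kept their direction and their call under all 15 alternatives (adjusted p up to 0.00996, 0.0265 and 0.0452). Plet1 did not pass under any of the 15. Without each library in turn, 3 to 5 of the 9 genes were lower in DT and 1 to 2 higher, 11 to 24 related genes were lower and 10 to 14 higher, and over all genes 996 to 2045 were lower and 1564 to 2826 higher. The low ends 3, 11, 10 and 996 came without DT library 2, and 1564 without DT library 3. Over all genes 1625 were higher without DT library 2, 1017 were lower without DT library 3 and 1040 were lower without saline library 2. Without saline library 3, 2 of the 9 were higher. Within the larger identifier series 3 of the 9 were lower, 12 related genes were lower, and over all genes 1097 were higher and 473 lower. In that fit Lrig1 (-0.73) and Cst6 (-0.72) did not pass and Defb6 turned to 0.21, and without DT library 3 or saline library 3 Defb6 was at 0.14 and 0.03. The lowest value of Defb6 with a library left out was -0.15. With the number series as a block, or with consecutive identifiers as pairs, 2 of the 9 were higher in DT, since Ly6a passed (adjusted p = 0.0272 and 0.0173). Deviations from the group mean within such pairs correlated at 0.052, 0.074 and 0.245. Between DT and saline libraries of different pairs the correlations ran from -0.205 to 0.092. The highest value, 0.245, was that of DT library 3 with saline library 3. The labels name no pairs, so the main fit had no pair term, and these few values cannot decide whether the libraries are paired. The causes of these differences were not tested. Fewer samples were fitted where a library or a series was left out.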
